A study of Gallus gallus with 6 samples.

Results

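NEU4 and GAL3ST2 are 2 glycan-modifying genes that lie side by side on chicken chromosome 9, and their expression in the uterus (shell gland) of hens is described here. Both were selected on their measured difference between layers and non-layers: they are listed among the 616 genes that the authors called different between these libraries, and were then taken for their position next to each other. The count table holds 19152 genes, of which these are 2. RNA was taken from 3 layers, Hy-Line hens 35 weeks old with an egg under active calcification at 15 to 20 h p.o. (post-ovulation), and from 3 non-layers, also Hy-Line, 35 to 60 weeks old and without growing follicles. The labels name no treatment or genetic change for either group, each library came from 1 hen, and uterine tissue was used without sorting cells. Age and laying status cannot be told apart for every hen, since single ages of the non-layers are not given in the sources used here.

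Sialidases cut sialic acid from the ends of glycan chains on glycoproteins and glycolipids, and NEU4 is 1 of the sialidases of vertebrates. From work on the human enzyme, GAL3ST2 is a Golgi sulfotransferase that moves sulfate from the donor PAPS (3'-phosphoadenosine 5'-phosphosulfate) to carbon 3 of a terminal galactose. The same carbon accepts sialic acid from the ST3GAL sialyltransferases, so removal of sialic acid and addition of sulfate both act on the ends of glycan chains and change the negative charge carried there. In the shell gland, secreted glycoproteins and proteoglycans are part of the organic matrix in which the mineral of the eggshell is laid down.

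In the Galgal 5.0 build, NEU4 (ENSGALG00000006361) spans chr9:4746372-4748199 and GAL3ST2 (ENSGALG00000006354) spans chr9:4749643-4754097. Both are protein-coding genes on the minus strand with exon lengths of 1590 and 1465 bases. Only 1443 bases separate them, and GAL3ST2 lies upstream of NEU4 in the direction of transcription. The next gene upstream of GAL3ST2, D2HGDH (ENSGALG00000039535), is on the same strand at chr9:4759613-4802966, with 5515 bases between it and GAL3ST2. RefSeq places the same 3 genes next to each other in the GRCg7b build, in the order NEU4, GAL3ST2, D2HGDH. Promoter and protein sequences were not used here.

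The libraries held 14756652 to 20333092 gene counts, and 13317 genes passed the filter on low counts, both members among them. Genes were called when the edgeR quasi-likelihood test gave a Benjamini-Hochberg adjusted p under 0.05 and the change was at least 2-fold: 249 were called, 1.87% of those tested, with 120 higher in layers (0.901%) and 129 lower. The balance of directions depended on the scaling: with library size only 103 were called higher and 678 lower, and with limma on RPKM 86 and 518, 90 and 572, or 40 and 218, in 3 settings. Groups did not overlap for 27.2% of tested genes, and for 12.1% every layer was above every non-layer. Markers of cell types describe the libraries here and cannot check the labelled tissue or state. Only genes that the authors called between these groups had a name, so markers they did not call could not be read. For shell gland epithelium, 5 of 12 markers had a name, and 3 of these were called higher in layers. EPCAM, CDH1, KRT18, KRT8, CLDN3, CA2 and CALB1 had none. The 5 named markers summed to 54821 to 66447 CPM (counts per 1000000 gene counts, on the TMM scale) in layers, against 490 to 769 CPM in non-layers. MEPE, which encodes the shell matrix protein ovocleidin-116, made up most of this sum in layers, with 786865, 668688 and 940227 counts, against 492, 767 and 238 in non-layers. All named markers come from the genes that the authors called. For cycling cells, 9 of 10 markers had a name and 7 of these were called lower in layers, with sums of 41.6 to 48.2 CPM in layers, against 144 to 630 CPM in non-layers. For ciliated cells, 3 of 10 had a name and 1 was called lower, with sums of 82.2 to 140 CPM in layers, against 223 to 281 CPM in non-layers. The 1 named immune marker of 10 was not called, at 5.23 to 8.62 CPM in layers, against 13.3 to 30.2 CPM in non-layers. The 1 named red blood cell marker of 8, HBBA, was not called either. It had 82.2, 58.3 and 386 CPM in layers 1, 2 and 3, against 44.1 to 54.3 CPM in non-layers. Of the 2 named magnum markers of 9, 1 was called higher, with sums of 12.3 to 36.7 CPM in layers, against 1.22 to 3.35 CPM in non-layers. None of the 10 smooth muscle markers had a name in the files, no named marker was at 0, and the part of these markers in the results below was not tested. In whole tissue, fewer cells of a type and less RNA per cell cannot be told apart.

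NEU4, the sialidase, was counted 388, 520 and 170 times in layers 1, 2 and 3, against 20, 10 and 20 times in non-layers 1, 2 and 3. Every layer was far above every non-layer, and among layers the second hen was highest and the third lowest. On the CPM scale the level of NEU4 averaged 22.9 ± 13.3 in layers and 0.919 ± 0.379 in non-layers (SD, n = 3 each). The fitted difference of NEU4 was 4.64 ± 0.60 (log2 ± SE), or 24.9-fold, and even the lowest layer stood 7.83-fold above the highest non-layer. On the log2(RPKM + 1) scale, which understates changes of low genes, NEU4 differed by 2.91. By fold change NEU4 ranked 11th among all tested genes higher in layers.

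GAL3ST2, the sulfotransferase, had 2803, 5910 and 1502 counts in layers 1, 2 and 3, against 230, 70 and 239 counts in non-layers 1, 2 and 3. The groups did not overlap, the second layer was again the highest, and the second non-layer was the lowest of all libraries, as it was for NEU4. The level of GAL3ST2 averaged 220 ± 170 CPM in layers, against 9.98 ± 5.71 CPM in non-layers (SD, n = 3 each). Its fitted difference was 4.47 ± 0.75 (log2 ± SE), or 22.1-fold, and the lowest layer stood 6.02-fold above the highest non-layer. Without layer 2, its highest library, the log2 fold change of GAL3ST2 was 3.65, and on the log2(RPKM + 1) scale it was 3.84. GAL3ST2 ranked 13th among all tested genes higher in layers. Since this contrast selected both genes, these differences are a description and no test is given for them.

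**Figure D1:**
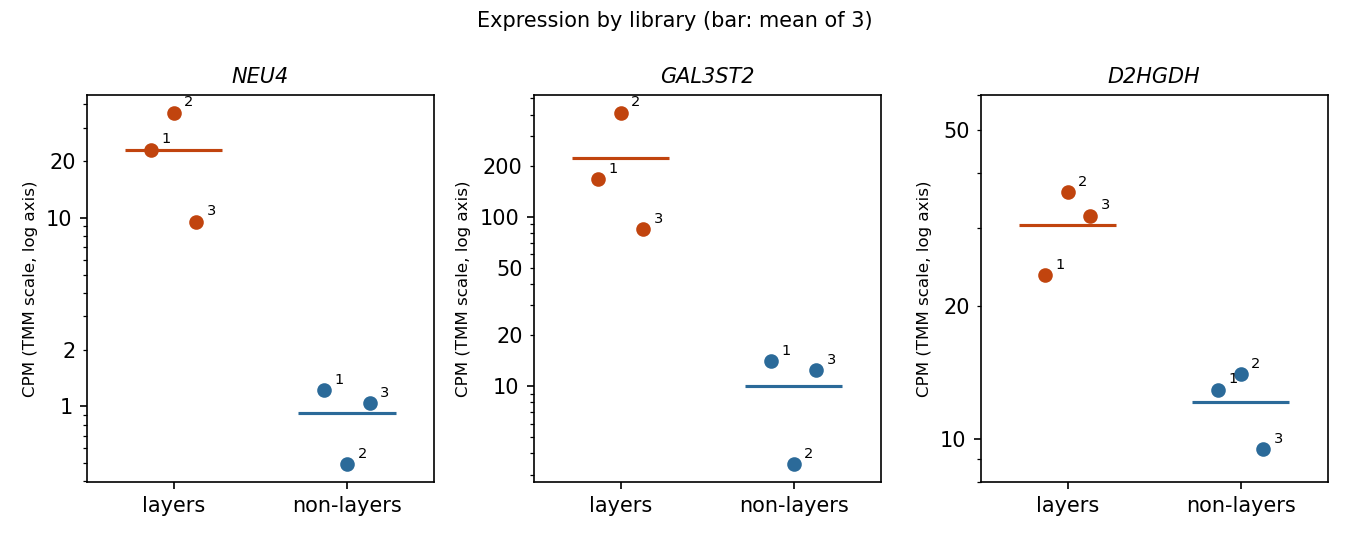
Levels of NEU4, GAL3ST2 and their neighbour D2HGDH in CPM (log axis), with layers on the left and non-layers on the right; points are single libraries with their replicate number, and bars are means of 3. Layers reach 36.1 CPM for NEU4 and 411 CPM for GAL3ST2, the second layer being the highest for both, and no layer overlaps a non-layer in any panel.

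Depth set what could be read from the single libraries. As CPM without the TMM factors, NEU4 had Wilson 95% intervals of 19.4 to 23.7, 28.5 to 33.8 and 7.19 to 9.72 in layers 1, 2 and 3, so the order of the layers was resolved. For non-layers 1, 2 and 3 the NEU4 intervals were 0.877 to 2.09, 0.291 to 0.986 and 0.794 to 1.90. Those of hens 1 and 3 overlap for most of their length, and that of hen 2 overlaps both only at its upper end. A full order of the non-layers in NEU4 was therefore not resolved. Overlap alone does not test hen 2 against the others, and no such test was run. GAL3ST2 had narrow intervals in layers 1, 2 and 3, of 149 to 161, 344 to 362 and 70.2 to 77.7 on the same scale. In non-layers its intervals were 13.7 to 17.7 and 12.9 to 16.6 for hens 1 and 3, which overlap, and 2.97 to 4.73 for hen 2, which lies apart. These intervals cover counting error only.

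Set against the other genes of a library per kilobase of exon, in RPKM (reads per kilobase of exon, scaled to the library's depth), GAL3ST2 belonged to the more abundant transcripts of layers. It had 106, 241 and 50.4 RPKM in layers 1, 2 and 3, with 4.62%, 2.05% and 12.3% of the genes detected in each library above it. In non-layers 1, 2 and 3 GAL3ST2 had 10.6, 2.56 and 10.01 RPKM, and 50.3%, 71.7% and 53.6% of detected genes were above it. NEU4 lay near the middle of the detected genes in layers, with 13.5, 19.5 and 5.26 RPKM and 41.1%, 29.0% and 57.3% of genes above it. In non-layers NEU4 was among the less abundant transcripts, with 0.852, 0.337 and 0.772 RPKM and 82.0%, 87.8% and 83.3% of genes above it.

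Per kilobase of exon, GAL3ST2 exceeded NEU4 in every library, by factors that overlapped between the groups. The ratio of GAL3ST2 to NEU4 in RPKM was 7.84, 12.3 and 9.59 in layers 1, 2 and 3, against 12.5, 7.60 and 12.97 in non-layers 1, 2 and 3. The groups overlapped: the lowest ratio was found in a non-layer and the highest in another. On the log2 scale the ratio averaged 3.17 ± 0.33 in layers and 3.30 ± 0.43 in non-layers (SD, n = 3 each), and the difference of -0.14 was smaller than the spread within either group. The smallest two-sided p of an exact permutation test on 3 against 3 hens is 0.1, and none was run on this difference. On the log2(RPKM + 1) scale the difference was 0.93, and on the log2(RPKM + 0.1) scale it was 0.06. The added 1 exceeds NEU4 in every non-layer (0.852, 0.337 and 0.772 RPKM), so the first scale shrinks the ratio there. NEU4 counts came to 13.8%, 8.80% and 11.3% of GAL3ST2 counts in layers, and to 8.70%, 14.3% and 8.37% in non-layers. The genes lie on the same strand 1443 bases apart, and the part that reads of GAL3ST2 transcripts take in the NEU4 counts was not tested.

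**Figure D2:**
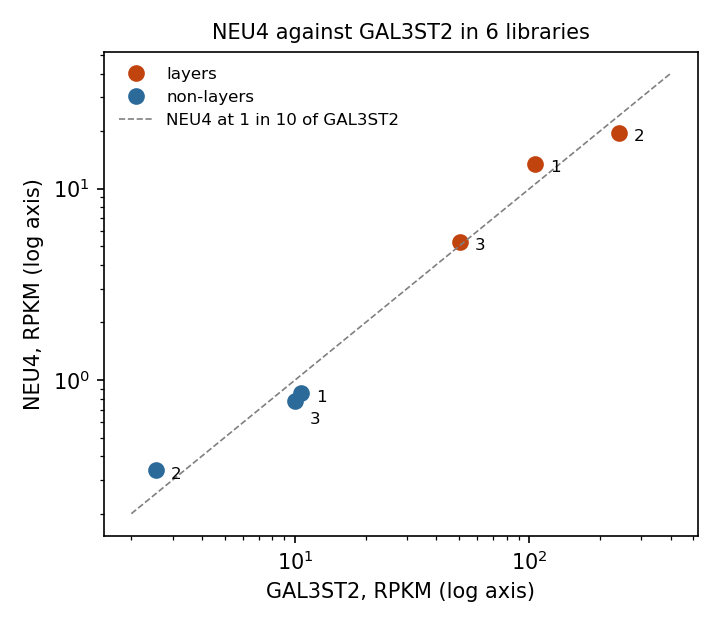
NEU4 against GAL3ST2 in RPKM on log axes for 3 layers and 3 non-layers, numbered by replicate; the dashed line marks NEU4 at 1 in 10 of GAL3ST2. Layers take the upper right and non-layers the lower left. The ratio of GAL3ST2 to NEU4 is 7.60 to 12.97 by value in the 6 libraries. In non-layers it rests on only 20, 10 and 20 NEU4 counts.

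Within a group, the SD of both genes was larger than that of most tested genes. The SD of log2 CPM of NEU4 was 0.97 among layers and 0.62 among non-layers, and that of GAL3ST2 was 1.14 among layers and 1.10 among non-layers. The median SD of all tested genes was 0.33 among layers and 0.22 among non-layers. NEU4 had a larger SD than 91.9% of tested genes in layers and 88.1% in non-layers, and GAL3ST2 than 94.7% in layers and 97.2% in non-layers. In non-layers NEU4 had only 20, 10 and 20 counts, so counting error adds to its SD there. How much of that SD is variation between hens was not tested. The highest layer exceeded the lowest 3.78-fold in NEU4 and 4.87-fold in GAL3ST2 on the CPM scale.

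The 2 genes deviated from their group means in the same direction in 5 of 6 hens. Deviations from a group mean constrain each other within the group, so the 6 signs are not independent. Deviations were taken on log2(CPM + 0.1). In layers 1, 2 and 3 those of NEU4 were 0.20, 0.85 and -1.06, and those of GAL3ST2 were -0.11, 1.20 and -1.09. In non-layers 1, 2 and 3 they were 0.45, -0.70 and 0.25 for NEU4 and 0.72, -1.27 and 0.55 for GAL3ST2. Layer 1 was the exception, with both genes close to their means. GAL3ST2 ordered the hens of both groups as NEU4 did, like 164 (1.23%) of all tested genes. With 3 hens per group no correlation was computed, and the NEU4 order rests on non-layers whose intervals overlap.

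The genes with the most similar profiles were found from log2 CPM over the 6 libraries, after each gene was centred on its own mean and with a pseudocount of 0.1 CPM. By the root mean square (RMS) difference, each member was the gene most like the other among 13317 tested, at 0.34, against a median over all tested genes of 2.32 from NEU4 and 2.40 from GAL3ST2. Since both were chosen by 1 contrast, similar profiles over its 6 libraries, and the gap to these medians, are largely given by the choice. By deviations within groups alone, the RMS difference of the pair was 0.34, against medians of 0.71 from NEU4 and 0.95 from GAL3ST2. On that measure GAL3ST2 was 118th in likeness to NEU4, and NEU4 was 5th in likeness to GAL3ST2. With a pseudocount of 1 CPM, GAL3ST2 was 8th in likeness to NEU4, and it ranked 3 without layer 2 and 2 without layer 3, while NEU4 came first for GAL3ST2 in all 10 alternatives tried.

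After GAL3ST2, the 5 genes most like NEU4 were TC2N (RMS 0.43), which encodes a protein with tandem C2 domains, PHGDH (0.56), the first enzyme of serine synthesis, PRKG2 (0.58), a cGMP-dependent protein kinase, GADL1 (0.62), a decarboxylase related to glutamate decarboxylase, and TSKU (0.63), a small secreted leucine-rich proteoglycan. TC2N averaged 83.7 ± 35.8 CPM in layers, against 6.02 ± 1.73 CPM in non-layers (SD, n = 3 each). Its layers had 107, 102 and 42.5 CPM, so the third layer was lowest here too, as it was for PHGDH with 36.4, 35.9 and 5.79 CPM. GAL3ST2 shared TC2N (0.67), PHGDH (0.74) and PRKG2 (0.85) with NEU4 among its 5, and added WSCD2 (0.76) and a gene without a name, ENSGALG00000006666 (0.84). ENSGALG00000006666 had 15.4, 73.1 and 10.96 CPM in layers, with the second layer far above the others as in GAL3ST2, and 1.71, 1.97 and 1.93 CPM in non-layers.

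**Figure D3:**
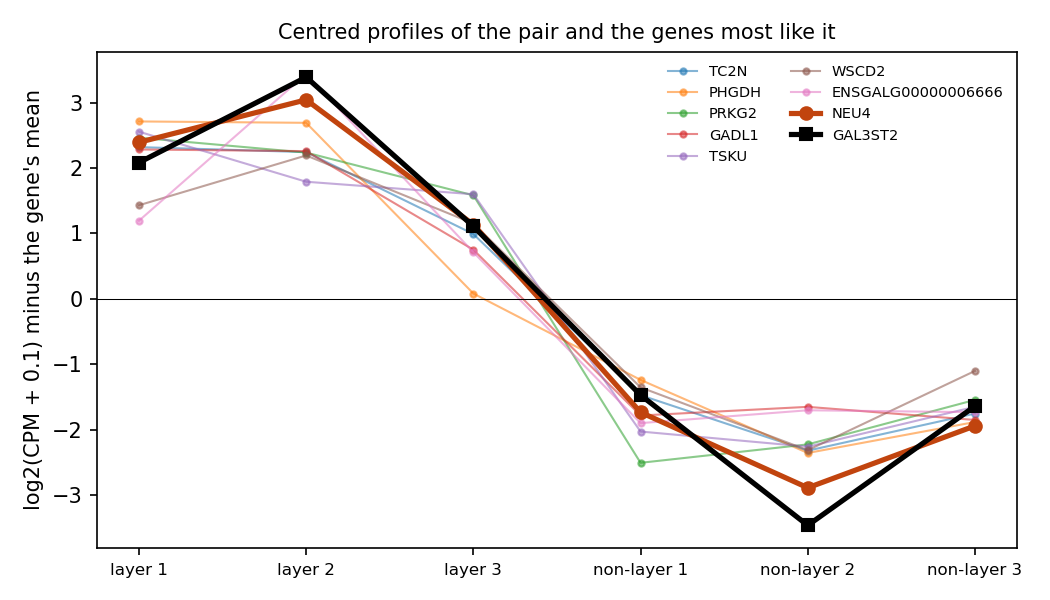
Log2(CPM + 0.1) of NEU4, GAL3ST2 and the genes most like them, each minus its own mean over the 6 libraries (vertical axis), in layers 1 to 3 and then non-layers 1 to 3. NEU4 and GAL3ST2 run together with an RMS difference of 0.34, and both are lowest in non-layer 2. TC2N, PHGDH, TSKU and WSCD2 are lowest there too, while PRKG2, GADL1 and ENSGALG00000006666 are not.

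The genes around the pair were examined next, 10 on each side by the order of genes in the count table, which followed position along the chromosomes (no backward step among 584 that could be checked). Of these 20 neighbours, 18 were tested and the other two had at most 3 counts in any library. Only D2HGDH was called, which is 1 of 18, against 1.87% of all tested genes. By sign, 13 neighbours were higher and 5 lower in layers, and their log2 fold changes had a median of 0.25, against 0.01 over all tested genes. In 5 of the 18 every layer was above every non-layer, against 12.1% of all tested genes, and in none was every layer below. Without D2HGDH, the log2 fold changes of the other 17 lay between -0.56 and 0.88. Those of the pair were larger, but the pair was chosen by this contrast, so that gap is partly given by the choice.

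D2HGDH, a mitochondrial dehydrogenase that oxidises D-2-hydroxyglutarate and does not act on glycans, had 396, 520 and 570 counts in layers 1, 2 and 3, against 212, 284 and 182 in non-layers 1, 2 and 3. The groups did not overlap, but the third layer, the lowest for NEU4 and GAL3ST2, was not the lowest here. Among the neighbours, ENSGALG00000006385, ENSGALG00000006221, ENSGALG00000006402 and ENSGALG00000006375 ordered the layers as the pair did. In layers 1, 2 and 3 ENSGALG00000006385 had 32.7, 51.1 and 7.70 CPM, and ENSGALG00000006221 had 15.9, 32.0 and 4.61 CPM. The other tested neighbours ordered the layers otherwise, and 16.9% of all tested genes had the order of NEU4. D2HGDH averaged 30.6 ± 6.47 CPM in layers, against 12.1 ± 2.36 CPM in non-layers (SD, n = 3 each). It differed by 1.33 ± 0.25 (log2 ± SE) with an edgeR adjusted p of 0.047. The call was lost when any 1 of the 6 libraries was left out, with adjusted p up to 0.22 and log2 fold changes of 1.18 to 1.49. Without layer 1, layer 2, non-layer 1 or non-layer 2, only 41, 2, 0 and 1 genes were called in all. Without layer 3 or non-layer 3, 273 and 274 were called, and D2HGDH was not (edgeR adjusted p of 0.070 and 0.082). It was also lost with library size only, where the log2 fold change was 0.99, and with limma on RPKM, at 0.91 to 0.98. On the other side, the first gene downstream of NEU4, ENSGALG00000006375, had 62, 58 and 49 counts in layers and 34, 34 and 52 counts in non-layers. Its log2 fold change of 0.69 ± 0.34 (SE) had an edgeR adjusted p of 0.30, so a difference was not shown for it.

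**Figure D4:**
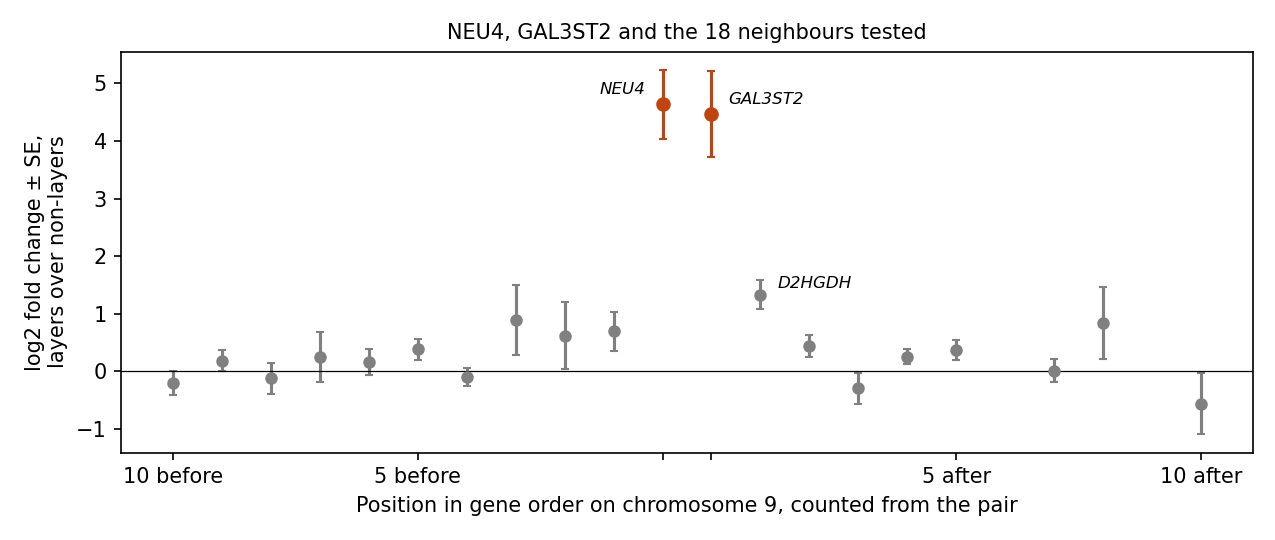
Log2 fold change with its SE (vertical axis; layers over non-layers) of NEU4 and GAL3ST2 in colour and of the 18 tested neighbours in grey, in the order of genes along chromosome 9. The pair stands at 4.64 and 4.47, D2HGDH at 1.33, and the other 17 neighbours between -0.56 and 0.88. The pair was chosen by this contrast, and the neighbours by position only.

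The other genes of glycan ends could be read only in part. The files pair identifiers with names only in the list of genes the authors called, so 2 of 33 genes of sialic acid, 3 of 47 of sulfation, 1 of 32 of glycan removal, 4 of 62 of chain building and 0 of 13 mucins could be found, the pair included. Those found were chosen by their change in these same libraries. Their direction and their adjusted p are therefore not independent evidence, and counts over the lists are void. The authors' call used DESeq2, so a DESeq2 call of a gene found here is largely given by that choice. The 8 beside the pair are therefore described one by one below, and no count of calls among them is read as a result. The other sialidases, the other GAL3ST genes and PAPSS1 had no name in the files and were not analysed here.

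Among the genes of sialic acid, SIAT9 is the synonym under which the files hold ST3GAL5, a sialyltransferase that makes the ganglioside GM3. It had 1876, 2982 and 2747 counts in layers, against 865, 1296 and 519 in non-layers, and the groups did not overlap. In 12.1% of all tested genes every layer was above every non-layer, and the authors' call between these groups chose SIAT9. Its level averaged 158 ± 48.1 CPM in layers, against 47.9 ± 18.9 CPM in non-layers (SD, n = 3 each), with a log2 fold change of 1.72 ± 0.36 (SE) and an edgeR adjusted p of 0.056, so it was not called. DESeq2 (adjusted p of 0.00028), library size only and filtered limma did call it, 4 of 14 alternatives in all. The DESeq2 call is largely given, since the authors' call that chose SIAT9 used DESeq2.

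Of the sulfation genes, PAPSS2 makes PAPS, the sulfate donor that sulfotransferases such as GAL3ST2 use. PAPSS2 had 354, 269 and 236 counts in layers, against 79, 91 and 113 in non-layers. It was called higher in layers, with 17.6 ± 3.97 CPM in layers, against 5.07 ± 0.735 CPM in non-layers (SD, n = 3 each). The log2 fold change was 1.80 ± 0.26 (SE) with an edgeR adjusted p of 0.033. WSCD2, whose protein carries a sulfotransferase-like domain, had 166, 241 and 144 counts in layers, against 22, 13 and 31 in non-layers. Its second layer was the highest and its second non-layer the lowest, as in GAL3ST2. WSCD2 was called higher in layers by 3.26 ± 0.46 (log2 ± SE), with an edgeR adjusted p of 0.033. It averaged 11.6 ± 4.58 CPM in layers, against 1.20 ± 0.503 CPM in non-layers (SD, n = 3 each). Leaving out layer 1, layer 2, non-layer 1 or non-layer 2 ended the call of PAPSS2 (adjusted p up to 0.17) and of WSCD2 (up to 0.16). In these fits only 41, 2, 0 and 1 of all tested genes were called. The log2 fold changes in the 6 fits without 1 library were 1.66 to 1.97 for PAPSS2 and 2.89 to 3.55 for WSCD2, and that of WSCD2 was 1.93 on the log2(RPKM + 1) scale. Limma on unfiltered log2(RPKM + 1) did not call PAPSS2 either (adjusted p of 0.060). PAPSS2 and WSCD2 were both chosen by the authors' call between these groups, so their adjusted p are not independent evidence.

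Among the genes that build glycan chains, GFPT1, which commits sugar to the hexosamine pathway and so to the amino sugars of glycans, was called higher in layers. It had 17535, 18148 and 15156 counts in layers, against 5449, 7114 and 6376 in non-layers, and differed by 1.63 ± 0.20 (log2 ± SE) with an edgeR adjusted p of 0.026. The call was lost without layer 1, layer 2, non-layer 1 or non-layer 2 (adjusted p up to 0.16), where only 41, 2, 0 and 1 of all tested genes were called. The log2 fold changes of GFPT1 were 1.48 to 1.77 in the 6 fits without 1 library. GFPT1 was chosen by the authors' call between these groups, so its adjusted p are not independent evidence. B3GNT7 and B3GNT2 add N-acetylglucosamine to galactose and so lengthen chains of the kind that GAL3ST2 caps. B3GNT7 had 534, 239 and 747 counts in layers, against 21, 54 and 140 in non-layers, and its order of layers was the reverse of that of GAL3ST2, with the second layer lowest. It is on chromosome 9 as well, but 10.56 megabases from GAL3ST2. B3GNT7 was 7.99-fold higher in layers by value (SE 0.65 on the log2 scale) with an edgeR adjusted p of 0.061, and B3GNT2 differed by 1.78 ± 0.41 (log2 ± SE) with an adjusted p of 0.072, so neither was called. Without non-layer 3 the log2 fold change of B3GNT7 was 3.92 and the gene was called (edgeR adjusted p of 0.030), as it was by DESeq2 (1.9e-05) and filtered limma (0.040 and 0.042). Without layer 2 that of B3GNT2 was 1.14, and only DESeq2 called it (adjusted p of 0.00073). DESeq2 was also the method of the authors' call that chose both genes, so its calls of B3GNT7 and B3GNT2 are largely given. B3GNT2 had 1197, 3206 and 1718 counts in layers, with the second layer highest, and 646, 813 and 660 in non-layers.

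Both remaining genes were lower in layers by value. GALNT9, which belongs to the enzymes that start mucin-type O-glycans, had 23, 15 and 24 counts in layers, against 83, 147 and 63 in non-layers. HPSE, heparanase, which cuts heparan sulfate chains, had 48, 69 and 84 counts in layers, against 182, 151 and 360 in non-layers. The groups did not overlap for either gene, as for 27.2% of all tested genes in either direction. Both genes were chosen by the authors' call between these groups, so this is partly given. Their log2 fold changes were -2.05 ± 0.39 (SE) for GALNT9 with an edgeR adjusted p of 0.051 and -1.59 ± 0.41 for HPSE with 0.094, so neither was called. GALNT9 was called lower in layers in 7 of 14 alternatives and HPSE in 4, DESeq2 (adjusted p of 0.00035 and 0.0053) and library size only (0.023 and 0.039) among them. The authors' call of both used DESeq2, so the DESeq2 calls are largely given. On the log2(RPKM + 1) scale GALNT9 stood at -1.34.

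**Figure D5:**
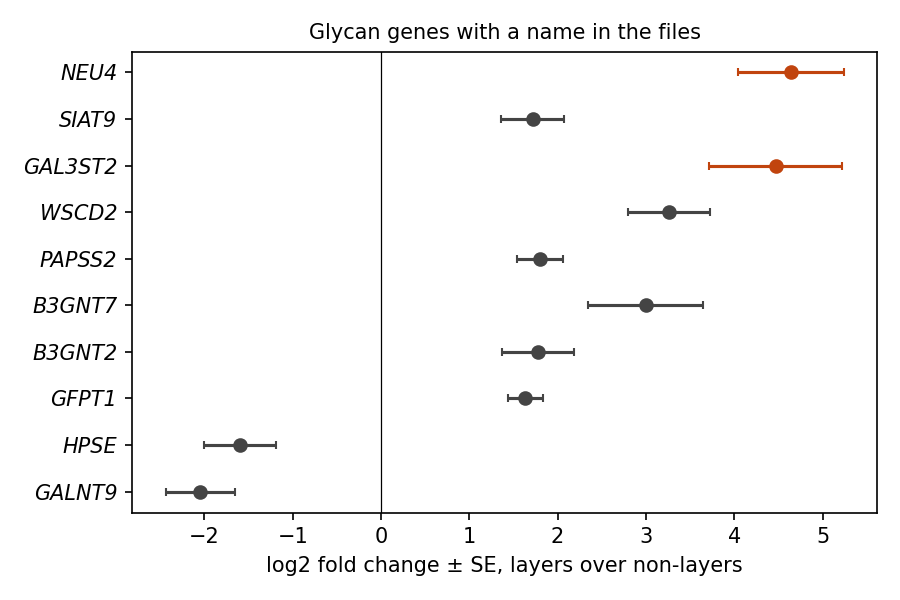
Log2 fold change with its SE (horizontal axis; layers over non-layers) of the 10 glycan genes with a name in the files, NEU4 and GAL3ST2 in colour. The pair stands furthest right at 4.64 and 4.47, WSCD2 follows at 3.26, and only HPSE and GALNT9 lie below 0, at -1.59 and -2.05. All 10 have a name because the authors called them in this contrast, so a count of directions is not a result.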

How the data were processed

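RNA-seq of the uterus of 3 layers and 3 non-layers was analysed, grouped by laying status in the labels, with 1 library of single-end 76-base reads per hen. The authors deposited estimated counts per Ensembl gene, aligned to Galgal 5.0, without normalization; 91.46% were whole numbers and all were rounded before testing. The gene counter and its use of strand are not given in the sources used here, so whether strand was used in counting is unknown here. The authors also deposited RPKM, that is, counts scaled by exon length and by the sum of gene counts. The last table, deposited by the authors, gives positions for the 616 genes they called and names for 516 of them, beside fold changes, p-values and group means, which were not used.

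edgeR 4.0.16 in R 4.3.3 was run on all 6 libraries, with TMM, filterByExpr and the quasi-likelihood test without covariates. The SE of a log2 fold change was its size over the square root of F. Wilson intervals are at 95%. Alternatives were median-ratio factors, library size only, no filter, DESeq2 1.42.0, limma 3.58.1 on log2(RPKM + 1 or 0.1) for genes that reached an RPKM of 1 in 3 or more libraries or unfiltered, the replicate block, and leaving out each library. Other settings of the profile comparison were chosen after seeing the data. The fits were tested on simulated data. Python 3.11.15 with numpy 2.4.6, pandas 2.3.3, scipy 1.17.1 and matplotlib 3.10.9 was used otherwise.

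The members and gene lists were chosen with earlier results of these data known. By rule the text names the pair, called genes of the lists, PAPSS2, the neighbours, and the 5 genes most like each member. SIAT9, HPSE, B3GNT2, B3GNT7 and GALNT9, list members without a call, and MEPE were added after their values were seen. The planned promoter search and the alternatives of the list counts were not run, since no sequences were used and under 80% of each list had a name. Chi-square tests between libraries of a group gave at least 13.4 per gene, so none was a duplicate.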

Additional observations from a re-analysis of the deposited data

How the results depend on the processing

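NEU4 and GAL3ST2 were higher in layers under all 14 alternatives. NEU4 had a log2 fold change of 2.91 with limma on log2(RPKM + 1), filtered or not, a scale that understates the change of low values, and 4.14 to 5.02 when 1 library was left out. GAL3ST2 gave 3.65 to 4.86 when 1 library was left out. The difference of their log2 ratio between layers and non-layers was 0.93 on log2(RPKM + 1), filtered or not, and 0.06 on log2(RPKM + 0.1). It was -0.38 to 0.02 when 1 library was left out. The number of neighbours called was 0 with library size only, with each of the 3 limma settings, with the replicate block and without any 1 library (0 to 0). GAL3ST2 ranked 8 in likeness to NEU4 with a profile pseudocount of 1, and 1 to 3 when 1 library was left out.

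Genes called in all numbered 249, against 781 with library size only, 928 with DESeq2, 604, 662 and 258 with limma, and 0 to 274 when 1 library was left out (41, 2 and 273 without layers 1, 2 and 3; 0, 1 and 274 without non-layers 1, 2 and 3). The median of all log2 fold changes moved by over 0.1 with library size only (-0.33) and with limma (-0.30, -0.34 and -0.21). With the replicate block 21 were called, and NEU4 stood at 4.47 and GAL3ST2 at 4.25; the numbers do not pair the hens (correlations of deviations -0.14, 0.11 and -0.064). Over 16 other named genes and 14 alternatives, 145 of 224 values kept their side of the threshold, 59 lost it, 20 gained it (GALNT9 in 7, SIAT9, HPSE and B3GNT7 in 4 each, B3GNT2 in 1) and none reversed. The gains with DESeq2 are largely given, since the authors' call that chose these genes used DESeq2. At 10 to 20 counts of NEU4 in each non-layer, depth limited the order of these hens.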
